A study of Mus musculus with 6 samples.

Results

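The genes described here are the mouse Fc receptors and Fc receptor-like genes Fcgr1, Fcgr2b, Fcgr3, Fcgr4, Fcer1g, Fcer1a, Fcer2a, Fcrla and Fcrl1, taken as every array probe whose gene name equals one of these 9. They were read by 15 of the 41174 probes on the array, on 24 spots, and are 9 of its 27827 gene or sequence names. All samples were cultured mouse pre-pro-B cells of genotype Ebf1 -/-, which lack the transcription factor Ebf1 and stop before B lineage commitment. The medium held IL-7, SCF and Flt3 ligand, each at 10 ng/ml, and the cells were kept on a feeder layer of OP9 stroma. Control cells received the retrovirus pMYs-IRES-EGFP, which encodes EGFP alone (n = 3), and the others pMYs-Ebf1beta-IRES-EGFP, which encodes Ebf1 and EGFP from 1 transcript (n = 3). EGFP-positive cells were sorted 24 h after infection, and their total RNA was labelled with Cy3 and hybridised to 1-colour Agilent arrays. Ebf1 was therefore expressed from a retroviral vector and not from its own locus, and the labels do not say whether replicates came from separate cultures or animals, so p-values measure only the spread between these samples. In bulk RNA of this kind, fewer cells of a type and less RNA per cell cannot be told apart.

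Fc receptors bind the constant part of antibodies. Fcgr1, Fcgr3 and Fcgr4 encode the ligand-binding chains of activating receptors for IgG, and Fcer1a that of the high-affinity receptor for IgE. All of them need the common gamma chain encoded by Fcer1g, a short transmembrane protein whose ITAM tyrosines recruit the kinase Syk. Fcgr2b encodes the inhibitory IgG receptor, which carries its own ITIM and recruits the phosphatase SHIP (Inpp5d). This receptor is the main IgG receptor of B cells but is not confined to them. Myeloid, mast and natural killer cells use the activating receptors. Fcer2a encodes CD23, the low-affinity IgE receptor of mature B cells, and Fcrl1 and Fcrla are Fc receptor relatives expressed in the B lineage.

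Fcgr1 and Fcgr3, which encode activating receptors, and the signalling chain gene Fcer1g were lower in the Ebf1 samples, Fcgr3 on 1 of its 2 probes. The inhibitory receptor gene Fcgr2b did not pass the test. Of the 9 genes, 6 had a tested probe, meaning one well above background on all 3 arrays of at least 1 group, and 10 of the 15 probes were tested. Of these 6 genes 3 fell (Fcgr1, Fcgr3 and Fcer1g) and 0 rose by limma's moderated test with Benjamini-Hochberg adjustment, where a gene is judged by its brightest tested probe. Over all 13835 genes tested this way 11% were called lower and 12.6% higher. By probes, 4 of the 10 were called lower, against 10.2% of all tested probes, and 0 higher, against 11.5%. The groups did not overlap for 5 probes that were lower and 1 that was higher, against 23.7% and 18.8% of all tested probes. At an unadjusted p under 0.05 the same 3 genes were lower and 1, Fcrla, was higher, and limma with a trended, robust prior also called 3 lower and 0 higher. The other 3 genes, Fcgr4, Fcer1a and Fcer2a, were not well above background on any array. The median log2 change over the 20452 tested probes was -0.06.

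**Figure D1:**
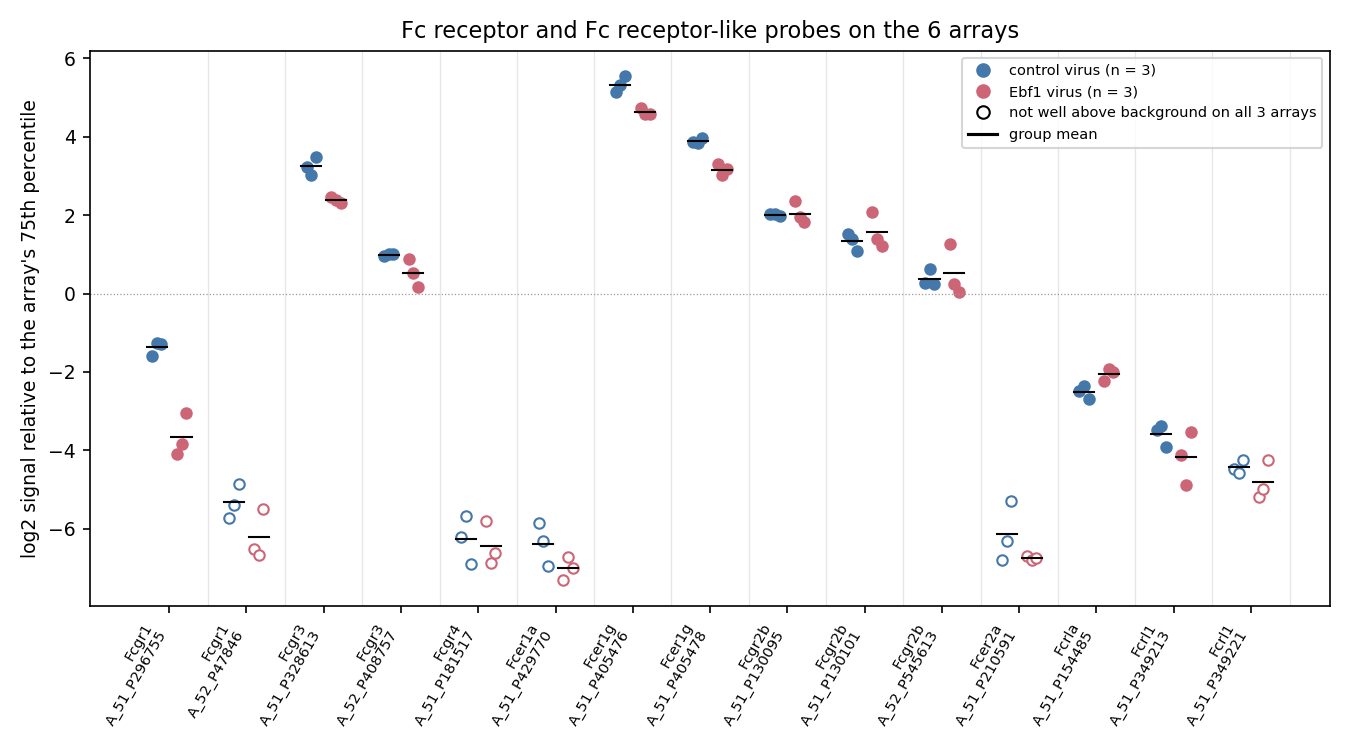
Log2 signal relative to each array's 75th percentile (vertical axis) for the 15 probes of the 9 genes, with 1 point per array (3 control virus, 3 Ebf1 virus; replicates 1 to 3 from left to right) and a bar at each group mean. Open points mark groups in which the probe was not well above background on all 3 arrays; the groups do not overlap for Fcgr1 A_51_P296755 and for both probes of Fcgr3 and of Fcer1g, and all 3 Ebf1 arrays of Fcrla lie above the controls.

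Fcgr1, the high-affinity IgG receptor gene of monocytes and macrophages, changed most among the members. Its probe A_51_P296755 (chromosome 3, 96088140 to 96088199, mm9) read -1.59, -1.25 and -1.28 in control replicates 1 to 3 and -4.11, -3.85 and -3.04 in Ebf1 replicates 1 to 3, as log2 signal relative to the array's 75th percentile. Every Ebf1 array lay below every control array, and Ebf1 replicate 3 was the highest of its group. In linear units the processed signal went from between 100.6 and 121.2 in control to between 21.12 and 38.44 in Ebf1 cells, still well above background on all 6 arrays. The mean fell from -1.38 ± 0.19 to -3.67 ± 0.56 (SD, n = 3 each), which is 4.90-fold lower and -2.29 ± 0.28 on the log2 scale (SE; limma adjusted p = 0.00101). With normexp correction, which adds an offset and shrinks changes of dim probes, the change was -1.04, and on the slide that held both groups it was -2.85. The call was kept in all 17 alternatives that were run for this probe (adjusted p from 8.6e-13 to 0.0114). On no array was a second Fcgr1 probe, A_52_P47846 (96088398 to 96088461), well above background, and it was not tested.

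Fcgr3, which encodes the low-affinity activating IgG receptor (CD16), was read by a pair of probes that differed in their calls. A_51_P328613 (chromosome 1, 172981647 to 172981722, mm9) read 3.23, 3.03 and 3.48 in control and 2.46, 2.39 and 2.31 in Ebf1 replicates 1 to 3. The Ebf1 arrays were close together and all below the controls. The fall was 1.81-fold, or -0.86 ± 0.16 on the log2 scale (SE, limma adjusted p = 0.00815). A_52_P408757 (172984129 to 172984188) read 0.95, 1.02 and 1.00 in control and 0.89, 0.53 and 0.17 in Ebf1 cells. The groups did not overlap here either, but Ebf1 replicate 1 lay just under the lowest control, and the change of -0.46 ± 0.20 did not pass (adjusted p = 0.139); without Ebf1 replicate 1 it was -0.64 and passed (0.0414; range over its alternatives 0.0414 to 0.807). The extracellular parts of Fcgr3 and Fcgr2b are known to be closely alike, so the probe of each gene that lies furthest 5' on the genome is shown. Which part of the receptor each probe reads was not mapped, so the pair does not compare the extracellular parts. Neither probe is annotated to an accession of the other gene, and whether either also binds the other transcript was not tested.
Fcgr3 A_52_P408757: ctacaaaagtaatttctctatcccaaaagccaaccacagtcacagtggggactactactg
Fcgr2b A_52_P545613: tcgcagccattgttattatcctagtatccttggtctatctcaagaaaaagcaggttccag

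Fcer1g, the shared signalling chain on which Fcgr1, Fcgr3, Fcgr4 and Fcer1a depend, fell on both of its probes. A_51_P405476 (chromosome 1, 173159794 to 173159853, mm9) read 5.13, 5.31 and 5.55 in control and 4.74, 4.58 and 4.58 in Ebf1 replicates 1 to 3, with processed signals of 9546 to 12840 and 7585 to 9724. The fall was 1.62-fold, or -0.70 ± 0.16 on the log2 scale (SE, limma adjusted p = 0.019). A_51_P405478 (173159846 to 173159918), which overlaps it by a few bases, read 3.88, 3.84 and 3.98 against 3.30, 3.02 and 3.17, a change of -0.74 ± 0.14 (adjusted p = 0.00967). On both probes all Ebf1 arrays lay below all control arrays. The call of the first probe was lost without control replicate 2 (adjusted p = 0.068) or 3 (0.0722) and without Ebf1 replicate 2 (0.0631) or 3 (0.0566), within a range of 0.00483 to 0.264 over its alternatives; the second probe kept its call without any single array.

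The slide is the one batch the files give. Slide 1 held control replicates 1 and 3, slide 2 control replicate 2 and Ebf1 replicate 1, and slide 3 Ebf1 replicates 2 and 3. The single within-slide difference, on slide 2, was -0.58 for Fcgr3 A_51_P328613, -0.13 for Fcgr3 A_52_P408757, and -0.58 and -0.54 for the Fcer1g probes. With slide as a fixed block, a fit that rests on that 1 pair of arrays for the group term, Fcgr3 and Fcer1g lost their calls (adjusted p = 0.223 for Fcgr3, 0.264 and 0.234 for Fcer1g) and Fcgr1 kept its own (0.0106). With slide as a random block all 3 genes kept their calls. That fit still compares slide 1, which held only controls, with slide 3, which held only Ebf1 arrays. It therefore cannot separate slide from virus.

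Fcgr2b, the inhibitory receptor gene, was not called on any of its 3 probes. A_51_P130095 (chromosome 1, 172890988 to 172891047, mm9), printed on 10 spots of each array, read 2.04, 2.04 and 1.97 in control and 2.35, 1.95 and 1.83 in Ebf1 replicates 1 to 3. Ebf1 replicate 1 was the highest of all arrays and Ebf1 replicate 3 the lowest, so the groups overlapped. The SD over the 10 spots within an array was 0.05 to 0.11, against an SD of 0.27 between the 3 Ebf1 arrays. The log2 change was 0.03 ± 0.17 (SE, limma adjusted p = 0.919) with a 95% interval from -0.37 to 0.43. The other probes, A_51_P130101 (172891127 to 172891186) and A_52_P545613 (172895833 to 172895892), changed by 0.23 ± 0.25 and 0.15 ± 0.31 (adjusted p = 0.548 and 0.769), and Ebf1 replicate 1 was again the highest array on each. Without Ebf1 replicate 1 the 3 probes were at -0.12, -0.036 and -0.23, and with median scaling at -0.28, -0.078 and -0.16. On slide 2, which held Ebf1 replicate 1 and control replicate 2, they were at 0.31, 0.70 and 0.65, not called with slide as a fixed block, so no direction holds for this gene.

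**Figure D2:**
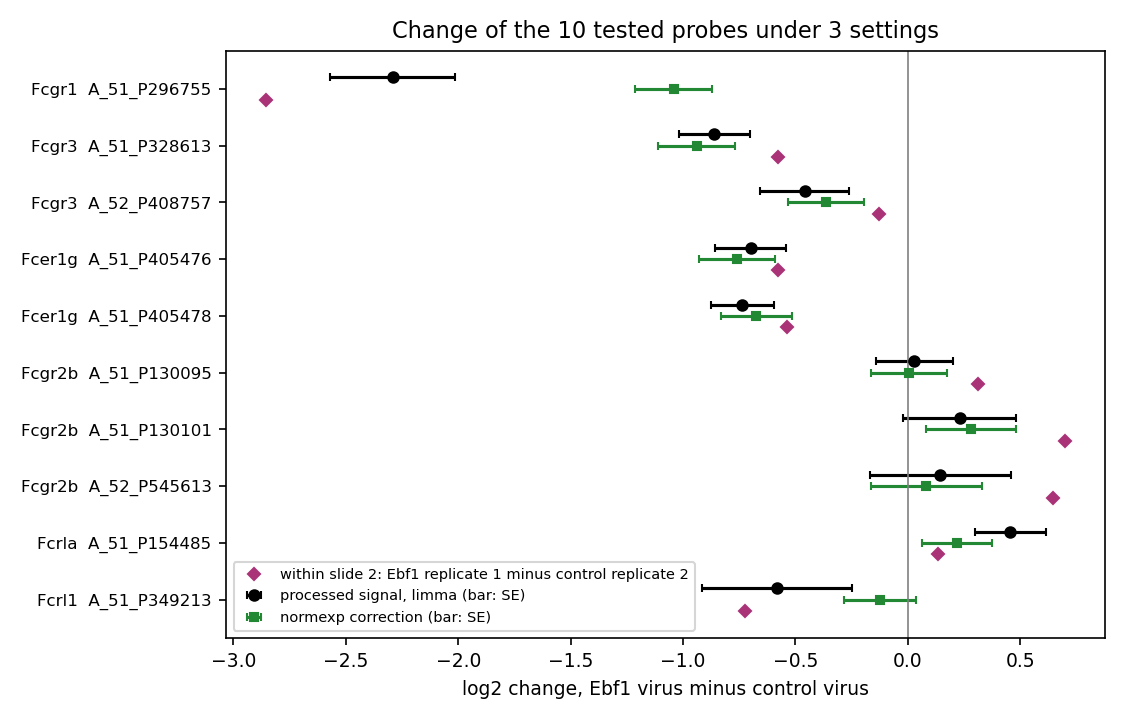
Log2 change, Ebf1 virus minus control virus, of the 10 tested probes (rows) with the processed signal and with normexp correction (bars, SE, n = 3 arrays per group) and for the slide that held 1 array of each group (diamonds, no error). The Fcgr1, Fcgr3 and Fcer1g probes lie below 0 under all 3 settings, and Fcgr1 moves from -2.29 to -1.04 with normexp correction.

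The balance of activating to inhibitory receptor signal was compared within each array, which removes any scaling between arrays. Fcgr3 (A_51_P328613) minus Fcgr2b (A_51_P130095) was 1.19, 1.00 and 1.51 on the log2 scale in control replicates 1 to 3 and 0.10, 0.45 and 0.48 in Ebf1 replicates 1 to 3. The difference between the group means was -0.89, and the groups did not overlap. The same contrast with Fcgr2b was -0.49 for the second Fcgr3 probe, -0.73 for Fcer1g A_51_P405476 and -2.32 for Fcgr1, with no overlap of the groups in any of the 4 comparisons. All 4 use the same Fcgr2b probe, and the probes set against it already lay lower without overlap. They restate those falls and are not 4 separate results. In a two-sided exact permutation test each gave p = 0.1, also after Benjamini-Hochberg adjustment, which is the smallest p that 3 against 3 arrays allow. Any contrast without overlap gives this p, so the test adds nothing to the lack of overlap. With normexp correction the Fcgr1 contrast was -1.05.

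Fcgr4, Fcer1a and Fcer2a were not well above background on any of the 6 arrays, so no change can be given for them. Fcgr4 encodes the mouse activating receptor for IgG2 subclasses, and its probe (A_51_P181517, chromosome 1, 172959738 to 172959797, mm9) had processed signals of 2.169 to 4.891 in control and 2.959 to 6.539 in Ebf1 cells. Fcer1a, the IgE-binding chain of mast cells and basophils (A_51_P429770, chromosome 1, 175152865 to 175152924), had signals of 2.092 to 6.279 and 2.276 to 3.294. Fcer2a (CD23; A_51_P210591, chromosome 8, 3682021 to 3682080) had signals of 3.035 to 6.685 and 2.951 to 3.503. All of these signals lay under 7 units, against a 75th percentile signal of 239.9 to 365.7 per array.

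The Fc receptor-like genes were dim and neither was called. Fcrla encodes an intracellular relative of the receptors that is found in B cells. Its probe A_51_P154485 (chromosome 1, 172848103 to 172848162, mm9) read -2.48, -2.37 and -2.69 in control and -2.23, -1.93 and -2.00 in Ebf1 replicates 1 to 3. All Ebf1 arrays lay above all control arrays, but the log2 change of 0.46 ± 0.16 (SE) did not pass (limma adjusted p = 0.0768). It passed with the 75th percentile taken over probes detected on all arrays (0.55, adjusted p = 0.0426; 0.0426 to 0.777 over its alternatives), and was 0.22 with normexp correction and 0.14 on slide 2. Fcrl1, a B cell surface receptor, was read by A_51_P349213 (chromosome 3, 87195973 to 87196032) at -3.48, -3.39 and -3.91 in control and -4.11, -4.89 and -3.53 in Ebf1 cells. The groups overlapped through Ebf1 replicate 3, and the change of -0.58 ± 0.33 did not pass (adjusted p = 0.248). It was -0.12 with normexp correction, -0.23 without Ebf1 replicate 2 and -0.91 without Ebf1 replicate 3, none of them called. It passed with median scaling (-0.89, adjusted p = 0.0461; 0.0461 to 0.673 over its alternatives), a scaling that lowered the median of all probes from -0.06 to -0.37. A second Fcrl1 probe (A_51_P349221, 87189656 to 87190681) was well above background on 2 of 3 arrays in each group and was not tested.

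The sequences before the transcription starts of the 3 genes that fell are shown with that of Fcgr2b, since Fcgr3, Fcer1g and Fcgr2b lie in 1 cluster and differ in their calls. They are the 250 bases before the start from RefSeq on GRCm38.p6, read on the gene's strand, and all 9 members had an entry. Ebf1 binds the palindrome CCCNNGGG, and the Ets factor PU.1 of myeloid and B cells binds sites such as GAGGAA. Both were searched on both strands, and capitals mark the matches.
Fcgr1, chr3:96293970-96294219, minus strand: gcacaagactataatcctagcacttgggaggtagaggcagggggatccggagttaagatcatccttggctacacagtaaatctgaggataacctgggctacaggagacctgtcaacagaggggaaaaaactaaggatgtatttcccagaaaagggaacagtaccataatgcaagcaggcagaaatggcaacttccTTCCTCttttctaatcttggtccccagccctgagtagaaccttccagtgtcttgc
Fcgr3, chr1:171059404-171059653, minus strand: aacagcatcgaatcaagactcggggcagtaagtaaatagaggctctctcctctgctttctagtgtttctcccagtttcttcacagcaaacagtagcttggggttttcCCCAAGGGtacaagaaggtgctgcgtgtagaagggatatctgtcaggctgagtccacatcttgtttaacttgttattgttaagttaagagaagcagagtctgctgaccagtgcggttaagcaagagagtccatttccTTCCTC
Fcer1g, chr1:171234350-171234599, minus strand: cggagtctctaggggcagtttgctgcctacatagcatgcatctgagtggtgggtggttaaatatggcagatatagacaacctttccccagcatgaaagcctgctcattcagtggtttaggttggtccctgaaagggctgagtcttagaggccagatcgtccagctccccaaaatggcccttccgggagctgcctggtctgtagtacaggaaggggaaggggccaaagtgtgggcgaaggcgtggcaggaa
Fcgr2b, chr1:170976072-170976321, minus strand: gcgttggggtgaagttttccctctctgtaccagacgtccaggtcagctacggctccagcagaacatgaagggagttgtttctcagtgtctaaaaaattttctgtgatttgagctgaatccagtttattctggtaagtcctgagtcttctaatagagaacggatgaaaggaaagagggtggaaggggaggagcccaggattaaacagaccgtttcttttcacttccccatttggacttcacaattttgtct

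GAGGAA lay 55 bases before the start of Fcgr1 and 6 bases before the first start listed for Fcgr3, in both as TTCCTC on the gene's strand. It was also present before Fcgr4 (22 bases), Fcrla (37 bases), Fcer1a (216 bases) and Fcrl1, which makes 6 of the 9 members, against 23.3% of all 32851 windows of this length. Members are counted by gene and the shares by window, and Fcgr3 and Fcer2a had more than 1 window, so the units differ. The windows of Fcgr2b, Fcer1g and Fcer2a held no exact GAGGAA, and other forms of a PU.1 site were not searched. CCCNNGGG occurred in 1 member, Fcgr3, with its match beginning 143 bases before the start, and in 11.8% of all windows. A longer palindrome, with 1 more base at each end, was in no member window and in 0.779% of all windows. A match is a description of the letters and not of binding.

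5 of the 9 members lie together on mouse chromosome 1. From Fcrla to Fcer1g their probes span 311.8 kb (mm9), in the order Fcrla, Fcgr2b, Fcgr4, Fcgr3, Fcer1g. Within 250 kb of this span the array named 31 other genes or sequences, of which 19 were tested. Of these 19, 1 fell and 0 rose, while over all genes tested 11% were called lower and 12.6% higher. At an unadjusted p under 0.05 the counts were 6 and 2. The gene called lower was Dusp12, a dual-specificity phosphatase at -86.6 kb from the 10-spot Fcgr2b probe, with a change of -0.76 ± 0.19 (SE, limma adjusted p = 0.0296). Its call was lost with slide as a fixed block, with no filter, and without control replicate 2 or 3 or Ebf1 replicate 1 or 2 (adjusted p = 0.104, 0.102, 0.0565 and 0.0521 for these arrays). Of the pair of probes for the stress sensor gene Atf6, at the edge of the window, the dimmer passed (-0.89 ± 0.14) and the brighter did not (-0.44 ± 0.16). Chosen after its value was seen, Sdhc, a respiratory chain gene between Fcgr3 and Fcer1g, was at 0.11 ± 0.18 and was not called.

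**Figure D3:**
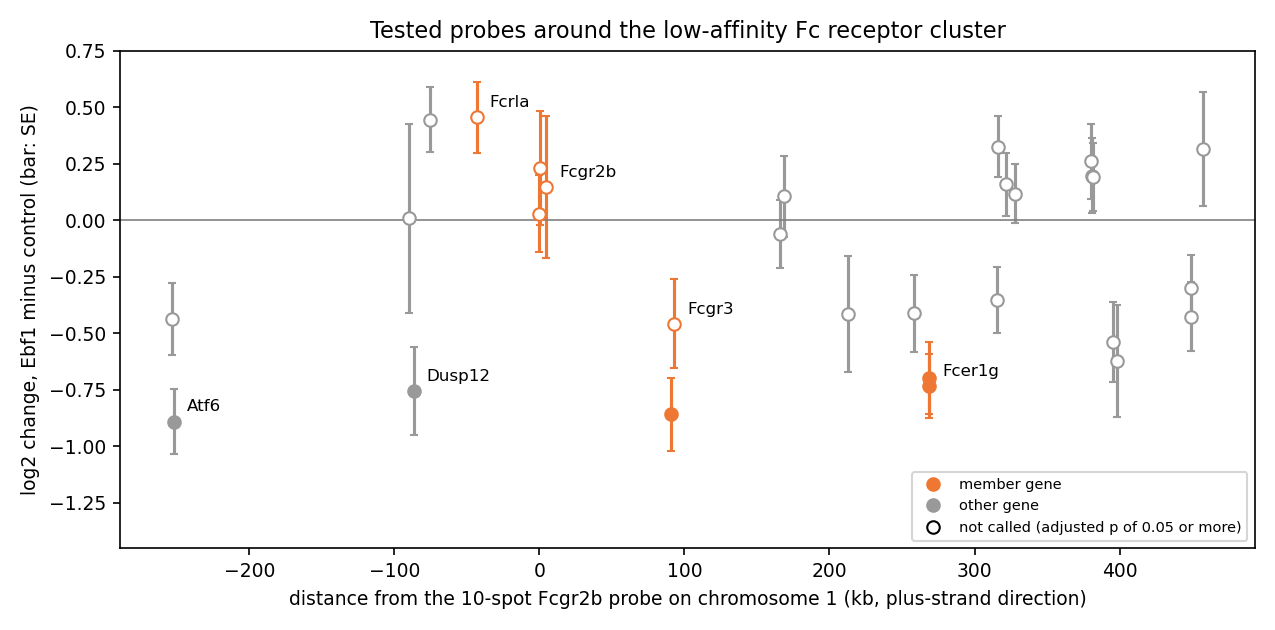
Log2 change, Ebf1 minus control (bars, SE, n = 3 arrays per group), of tested probes by distance in kb from the 10-spot Fcgr2b probe on chromosome 1; orange points are the receptor genes, grey points other genes, and filled points were called. Fcrla and Fcgr2b lie at or above 0, and Fcgr3 and Fcer1g lie below it, with uncalled genes on both sides of 0 around them.

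Other receptors for antibodies were mostly dim. Of a list of 10 (Fcgrt, Fcamr, Fcmr, Pigr, Fcrl5, Fcrl6, Fcrls, Fcrlb, Trim21 and Ms4a2) 9 were on the array and 2 were tested, with 0 called in either direction by limma and 0 at an unadjusted p under 0.05. Fcgrt, which encodes the neonatal Fc receptor, was at 0.09 ± 0.30 (SE, adjusted p = 0.859). Ms4a2, the beta chain of the IgE receptor, was well above background on none of the 6 arrays. Receptors that signal through Fcer1g were also few: of 11 listed, 10 were on the array, 3 were tested, 2 were called lower and 0 higher (2 and 0 at an unadjusted p under 0.05). Over all genes tested, 11% were called lower and 12.6% higher. Clec4e (Mincle), a receptor for microbial glycolipids, read -3.81, -3.58 and -3.31 in control and -5.28, -4.59 and -4.92 in Ebf1 replicates 1 to 3. This is a change of -1.36 ± 0.22 (adjusted p = 0.0042), with 1 of 3 Ebf1 arrays well above background, and with normexp correction it was -0.31 and not called. Clec4d, its partner, was at -0.53 ± 0.15 (adjusted p = 0.0396) and lost its call when any single array was left out (0.0687 to 0.131).

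Genes that carry the signal from activating Fc receptors were called about as often as genes over the whole array. Of 26 listed, 24 were tested, and 3 rose, 3 fell and 18 did not pass (over all genes 12.6% were called higher and 11% lower), with a median log2 change of -0.04 against -0.06 over all genes tested. Syk, the kinase that docks on the phosphorylated gamma chain, was at -0.03 ± 0.15 (SE, adjusted p = 0.897), and Lyn, which phosphorylates it, at -0.08 ± 0.20. Tyrobp, which encodes DAP12, an adaptor related in function to Fcer1g, read 5.37, 5.09 and 5.35 in control and 5.42, 5.18 and 5.07 in Ebf1 replicates 1 to 3, with overlapping groups and a change of -0.05 ± 0.16 (95% interval -0.42 to 0.33). Prkcd, a protein kinase C, rose by 1.87 ± 0.18, and Plcg2, the phospholipase downstream of Btk, by 0.93 ± 0.14; Plcg2 was not called with median scaling (0.63) or with slide as a fixed block (1.03, adjusted p = 0.0684; 0.00104 with normexp correction). Chosen after their values were seen, the 3 that fell were the adaptor Lcp2 (SLP-76, -1.57 ± 0.25), the adaptor Lat2 (-0.80 ± 0.14, with 1 of 2 probes called) and the kinase subunit Pik3r1 (-0.85 ± 0.18). Pik3r1 lost its call without control replicate 2 (0.0654) or Ebf1 replicate 2 (0.0523). With slide as a fixed block none of these 3 kept its call.

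Of 15 inhibitory receptors and phosphatases listed, 12 were tested, 4 rose, 4 fell and 4 did not pass, with a median of 0.21, beside 12.6% of all genes called higher and 11% lower. Inpp5d, the phosphatase SHIP that Fcgr2b recruits, read 3.48, 3.72 and 4.03 in control and 4.86, 4.76 and 4.85 in Ebf1 replicates 1 to 3, a rise of 1.08 ± 0.17 on the log2 scale (SE, limma adjusted p = 0.00395). All Ebf1 arrays were above all control arrays; with median scaling the change was 0.77 and not called, and with slide as a fixed block 1.14 and not called. Cd72, an inhibitory coreceptor of B cells, rose by 2.00 ± 0.17, and Dok3, an adaptor that binds SHIP, by 1.48 ± 0.19. Pirb, an inhibitory receptor of myeloid and B cells, fell by 0.97 on the log2 scale (chosen after its value was seen; SE 0.17, adjusted p = 0.006), and was called lower on both of its probes. The count called lower was 1 without control replicate 2, 2 without control replicate 3 and 2 without Ebf1 replicate 3. With slide as a fixed block 1 was called higher and 0 lower.

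**Figure D4:**
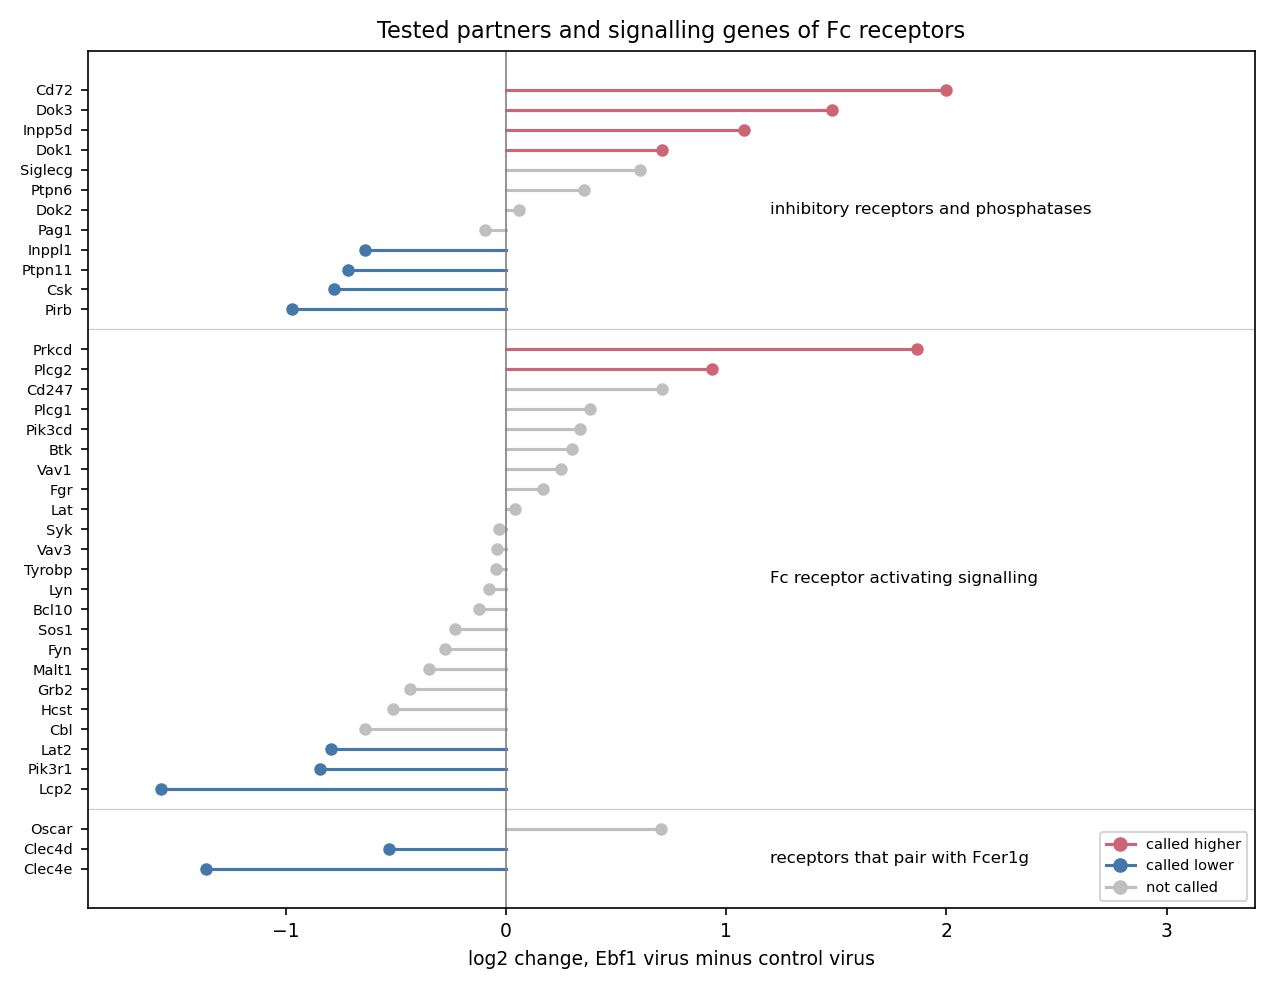
Log2 change, Ebf1 virus minus control virus (n = 3 arrays per group), of tested genes in the lists of Fcer1g-pairing receptors, activating signalling genes and inhibitory genes, with called genes in colour. Not every tested gene is drawn; Cd72 at 2.00 and Prkcd at 1.87 are the largest rises shown, and Lcp2 at -1.57 and Clec4e at -1.36 the largest falls.

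Genes listed as markers of other cells that carry Fc receptors moved in the same samples. Whether the pre-pro-B cells express these genes themselves was not tested. The counts of these lists stand beside 12.6% called higher and 11% called lower over all genes tested. Macrophage and granulocyte markers had 1 gene higher and 3 lower of 6 tested (13 on the array), and their summed signal, in multiples of the array's 75th percentile, was 14.1 to 21.3 in control and 8.20 to 9.90 in Ebf1 cells. Most of this sum came from 1 gene, which was called lower on 1 of its 2 probes. Mpo fell by 1.77 on the log2 scale, while Csf1r, another gene of this list, was at 1.69 ± 0.23 (limma adjusted p = 0.00173). Csf1r was not called with normexp correction, at 0.50, or with slide as a fixed block, at 1.44. Its probe was well above background on 2 of 3 control and 3 of 3 Ebf1 arrays. It thus entered the test through the group where it was brighter. Csf3r, S100a8 and S100a9 were not above background on any array. The count lower was 1 without control replicate 2 or 3, and the count higher was 2 without Ebf1 replicate 2, and 0 with slide as a fixed block or with only probes above background on all 6 arrays. Dendritic cell markers had 4 lower and 0 higher of 7 tested (5 and 1 at an unadjusted p under 0.05), with a summed signal of 74.3 to 85.6 and 53.3 to 59.8, and Itgax at -2.69 ± 0.18. Most of this sum was Bst2, chosen after its value was seen. Bst2 was at -0.43 ± 0.15 and was not called (limma adjusted p = 0.0788), so the sum says little about the called markers. Natural killer markers had 1 higher and 3 lower of 5, with a sum of 27.7 to 32.4 and 49.5 to 57.3 that rose with Gzma (5.36 ± 0.16) while Il2rb fell by 2.19. Of 4 tested mast cell and basophil markers 2 fell, Kit and, chosen after its value was seen, Cpa3, and the summed signal was 2.37 to 3.18 in control and 0.897 to 1.18 in Ebf1 cells. Kit made up most of this sum, so the sum is not a reading of the list as a whole or of mast cells. The other two, Gata2 and Hdc, were well above background on 0 of 3 control and 3 of 3 Ebf1 arrays and so entered the test through the group where they were brighter; they were at least 2.63-fold and 1.24-fold higher, bounds taken against the higher, per control array, of the lowest signal above background and the own signal of the probe, and neither was called with normexp correction. With only probes above background on all 6 arrays 0 were called higher, and with slide as a fixed block 1 was called higher and 1 lower. Mcpt8, Mitf, Ms4a2, Tpsab1 and Tpsb2 were not above background on any array. The part of these cell types in the falls of Fcgr1, Fcgr3 and Fcer1g was not tested.

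B lineage markers had 6 higher and 0 lower of 6 tested (6 and 0 at an unadjusted p under 0.05), with a summed signal of 1.62 to 2.00 in control and 513 to 568 in Ebf1 cells; only 2 of the 6 were above background on all 3 control arrays, and these 2 were called higher with only probes above background on all 6 arrays. Cd79a and Cr2 were not above background on any array. For the lists of this paragraph too, the shares over all genes tested were 12.6% higher and 11% lower. T cell markers had 1 higher and 2 lower of 8, with sums of 25.8 to 29.6 and 24.6 to 26.6, and 0 higher and 0 lower with slide as a fixed block. Markers of the stromal feeder cells had 3 higher and 0 lower of 7 (6 and 0 unadjusted), with sums of 8.90 to 12.5 and 13.8 to 17.9, and 0 higher without control replicate 1 or 3 or without Ebf1 replicate 1 or 2 and 1 without Ebf1 replicate 3, and 0 with median scaling. The 1 Ebf1 probe above background, which may or may not lie in the sequence carried by the virus, changed by -0.15 ± 0.21 (SE, adjusted p = 0.646) and checks nothing about the labels.

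The genes whose 6 array values, each centred on its own mean, lay closest to those of Fcgr1 were Ccr10 (Euclidean distance 0.21 on the log2 scale), the unnamed transcript ENSMUST00000109705 (0.32) and Slfn2 (0.35). Ccr10, a chemokine receptor gene, fell by 2.37 on the log2 scale (SE 0.26), and Slfn2, of the Schlafen family, by 2.26 (SE 0.22). With normexp correction they were at -0.90 and -1.43. These genes were chosen for their closeness to Fcgr1, so falls of about its size follow from the choice.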

How the data were processed

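Scanner files of 6 Agilent 1-colour arrays were used. Per the file headers, the authors extracted spot intensities with Agilent Feature Extraction 10.5.1.1, which subtracted background and spatial trends within an array; they record no step between arrays. A deposited table holds the same linear intensities (all 45018 features within 0.1 percent); its column medians were 7.62 to 19.7. Probe positions are mm9, per the file headers.

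Log2 processed signals of 43379 non-control features were set relative to each array's 75th percentile, flagged spots (65 to 116 per array) left out and spots of a probe averaged. A probe with several spots was taken as well above background where most of them were. That held for 46.3% to 59.8% of probes per array; 20452 of 41174 were tested with limma 3.58.1 in R 4.3.3 (with the package data.table, version 1.17.8), two-sided, Benjamini-Hochberg threshold 0.05. Symbols were updated through RefSeq accessions (GRCm38.p6; 25097 probes matched, 3505 renamed). The number of arrays limits the precision.

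The members, the lists (11, with 133 genes) and the alternatives were chosen with earlier results of these data known. Named were all members, up to 3 called genes per list by smallest p (the smallest p where none was called), called neighbours on chromosome 1, the 3 genes closest in pattern to the most changed member and Ebf1; others are marked. On simulated data with this spread (20445 probes) the fit found 0% of 50 shifted probes at a log2 change of 0.5, 50% at 1, 90% at 2 and 96% at 3. In the data 21.7% of tested probes were called, a far larger share than was shifted in the simulation. With fewer shifted probes the Benjamini-Hochberg threshold is stricter, so these percentages do not give the power of the fit reported. Alternatives were normexp correction (offset 50), quantile normalisation, median scaling, the 75th percentile over detected probes, no filter, a filter on all 6 arrays, replicate and slide blocks, a trended robust prior, each gene's probe mean, values from the deposited table, and each array left out in turn. Some results that the rule would name are not reported here; the counts include them.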

Additional observations from a re-analysis of the deposited data

How the results depend on the processing

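Members called lower numbered 3, with 4 under median scaling, 2 with the replicate block, and 1 with no filter on dim probes or with slide as a fixed block; without single arrays they numbered 2 to 3. Members called higher numbered 0 except for 1 (Fcrla) with the 75th percentile over detected probes. Probes called higher over the array numbered 2349 and lower 2085. Higher calls were 1256 with median scaling, 1341 with no filter and 1269 with slide as a fixed block, and lower calls 655 with no filter, 898 with slide as a fixed block and 1233 with the replicate block. Without single arrays they were 1592 to 2125 higher and 1016 to 1687 lower. The share of calls that were higher was 53% in the fit reported, 32.2% with median scaling and 64.2% with the 75th percentile over detected probes. No filter adds tests of dim probes (41174 in all) and the slide block uses 1 pair of arrays; for the other settings the cause was not tested. Sign changes among values that were not called were those of the 3 Fcgr2b probes, with median scaling (-0.28, -0.078, -0.16) and when single arrays were left out (lowest -0.12, -0.036 and -0.23, without Ebf1 replicate 1, and highest 0.14, 0.41 and 0.38, without Ebf1 replicate 3), of Fcgrt (-0.066 with quantile normalisation, -0.22 with median scaling, -0.31 with the slide block, and -0.27 to 0.33 without single arrays) and of Ebf1 (0.11 with the slide block, and -0.32 to 0.062 without single arrays). Same-numbered samples did not deviate together: the correlations of their deviations from the group means were -0.17, -0.25 and 0.10, and control replicate 2 correlated best with Ebf1 replicate 1 (0.29), which shared its slide. The numbers are therefore not taken as pairs; with the replicate block the brighter Fcer1g probe was at -0.70 and lost its call (adjusted p = 0.0604; range over its alternatives 0.00483 to 0.264), and Fcgr1 and Fcgr3 kept theirs. Of the other values of single probes under an alternative, 769 kept direction and side of the threshold, 112 lost a call and 3 gained one. Signals of Fcgr4, Fcer1a and Fcer2a near background limit what can be said of them.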
